A study of Mus musculus with 9 samples.

Results

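The genes described here are 9 transcripts that earlier work reported as targets of the miR-17 cluster: Bcl2l11, Phlpp1, Phlpp2, Tgfbr2, Cdkn1a, Cyld, Ikzf4, Rora and Hif1a. They were chosen by name, and every probe set that the array annotation lists under 1 gene symbol was taken. This gave all 9 genes with 33 probe sets, of 18193 genes and 34945 such probe sets in the whole table. The samples were T lymphocytes of C57BL/6 mice, and each array read the RNA that came down with an antibody to Argonaute (AGO), the protein that carries microRNAs to the transcripts they pair with. T cells were cultured for 24 h in 1 of 3 ways: with C57BL/6 dendritic cells (syngeneic), with BALB/c dendritic cells (allogeneic), or with 0.1 µg/ml of anti-CD3e and anti-CD28 antibodies (antibody culture, named anti-CD3/CD28 in the plots). Dendritic cells were added at 1 per 20 T cells, and the labels name none for the antibody culture. After culture, the cells of all 3 groups were mixed with CD11c beads and the T cells were purified by negative magnetic selection. They were crosslinked with ultraviolet light and lysed, and the RNA recovered with AGO was amplified and hybridised to 1 array per sample. Each group had 3 arrays, labelled as biological replicates 1 to 3, with no animal or culture named for a number, so p-values measure the spread between these arrays. Arrays of input RNA were not analysed here, so a signal combines the abundance of a transcript and its share on AGO. In such bulk samples, fewer cells of a type and less RNA per cell cannot be told apart.

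The miR-17 cluster is a single primary transcript that yields several microRNAs. Lymphocytes raise it on activation, and it is known for promoting T cell survival and division by lowering pro-apoptotic proteins, brakes on AKT signalling and cell cycle inhibitors. A microRNA finds its targets mainly through its seed, bases 2 to 8 counted from its 5′ end, which pairs with a complementary site that usually lies in the 3′ part of a transcript. The 6 main mature microRNAs of the cluster lie on the + strand of chromosome 14 (RefSeq, GRCm38.p6), from chr14:115043684-115043706 for miR-17-5p to chr14:115044476-115044496 for miR-92a-3p. They are shown because they define which sites the cluster can read, with the seed in capitals and each written 5′ to 3′.
mmu-miR-17-5p: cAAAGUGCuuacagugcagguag
mmu-miR-20a-5p: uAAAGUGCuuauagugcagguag
mmu-miR-18a-5p: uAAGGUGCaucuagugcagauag
mmu-miR-19a-3p: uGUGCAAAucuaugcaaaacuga
mmu-miR-19b-3p: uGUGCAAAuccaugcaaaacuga
mmu-miR-92a-3p: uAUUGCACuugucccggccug
These fall into 4 seed groups. miR-17-5p and miR-20a-5p share AAAGUGC and would pair with GCACUUU in a transcript. miR-18a-5p differs from them inside the seed and would pair with GCACCUU. miR-19a-3p and miR-19b-3p share GUGCAAA and would pair with UUUGCAC, and miR-92a-3p would pair with GUGCAAU. Of these seeds, all but that of miR-19a-3p and miR-19b-3p also occur outside the 6 microRNAs shown. Among 1679 mature mouse microRNAs in the RefSeq table, 7 carry the first seed, with miR-17-5p, miR-20a-5p, miR-106b-5p and miR-93-5p among them. The seed of miR-92a-3p is carried by 6, itself included, and that of miR-18a-5p by 2, itself and miR-18b-5p. Only miR-19a-3p and miR-19b-3p carry theirs. No microRNA level was analysed here, and target sites in the 9 transcripts were not searched.

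Signals of most members differed more between replicate numbers than between cultures. For 8 of the 9 genes the means of the 3 replicate numbers lay further apart than the means of the 3 cultures, with Ikzf4 as the exception, and this held for 32 of the 33 probe sets. The share of all genes for which this held was not counted, and whole arrays also differed by number. Array medians were 4.58 to 4.59 in number 1, 5.60 to 5.67 in number 2 and 4.81 to 4.93 in number 3. Each gene is therefore given also as its difference within a number. In number 1 the allogeneic and antibody arrays were close to identical (SD of their difference over all genes 0.103, against 0.493 and 0.680 in numbers 2 and 3, log2). Signals of 2 arrays of 1 number were exactly equal, to the last deposited digit, in 54 of 297 comparisons of the 33 probe sets (18.2%). Over all probe sets the share of such ties was between 19.7% and 49.9% by number and pair of cultures, the highest for allogeneic against antibody culture in number 1. How the ties arose is not given in the sources used here, and a tie is no proof that nothing changed. Of the 33 probe sets, 20 exceeded the array median on all 9 arrays and 6 failed to do so on 5 or more. All 13 T cell markers measured (of 15 listed) exceeded the array median on all 9 arrays.

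No member was called in any of the 3 comparisons by limma at an adjusted p under 0.05, where 0 of 18193 genes were called in each (0%). Adjusted p-values of all members were 1, and with the replicate number as a block they lay at 0.709 or above. At an unadjusted p under 0.05 without the block, limma picked no member for allogeneic against syngeneic culture (0.148% of all genes), Ikzf4 for antibody against syngeneic culture (0.857%) and no member for allogeneic against antibody culture (0.132%). With the block it picked Tgfbr2 in the first comparison (4.53% of all genes), Ikzf4 and Phlpp1 in the second (6.79%) and Ikzf4 in the third (1.13%). Of the 111 genes of 10 pathway lists that are given beside the members, limma called 0 in any comparison with or without the block. At an unadjusted p under 0.05 without the block it picked only Thbs1 of these, in both comparisons with syngeneic culture, and with the block 8 of the 111 in allogeneic and 15 in antibody against syngeneic culture and 3 in allogeneic against antibody culture.

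The members lay mostly below syngeneic culture in both stimulated cultures. In antibody culture Cdkn1a and Ikzf4 were lower by 1.73 and 1.14 on the log2 scale, ratios of 0.301 and 0.455, and the other lower members differed by between −0.79 and −0.11. In allogeneic culture 7 of the 9 had a lower mean than in syngeneic culture, against 41.7% of all genes (49.2% once the dimmest 40% were removed), and the median log2 difference of the 9 was −0.16, against 0.03 over all genes. In antibody culture 7 of the 9 again had a lower mean, against 47.2% of all genes (52.7% without the dimmest), with a median of −0.29 against 0.00. The count of 7 held under both other scalings, while the medians became −0.11 in allogeneic culture after quantile normalization and −0.18 in antibody culture with arrays centred on their medians. These comparisons share the syngeneic arrays, so they are not separate observations. By the brightest probe sets, 3 of the 9 (Tgfbr2, Ikzf4 and Rora) were lower in all 3 replicate numbers in allogeneic culture, as were 7.96% of all genes and 12.2% without the dimmest. In antibody culture 4 (Tgfbr2, Cyld, Ikzf4 and Rora) were, against 9.15% and 13.6%. Other probe sets had higher means than in syngeneic culture for Tgfbr2 and Ikzf4 in allogeneic and for Tgfbr2 and Cyld in antibody culture. By the brightest probe sets, no member was higher in all 3 numbers in either comparison, where 7.29% and 7.80% of all genes were. Groups of arrays were separate for no member in allogeneic against syngeneic culture, where 0.192% of all genes were separate in the higher and 0.451% in the lower direction.

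**Figure D1:**
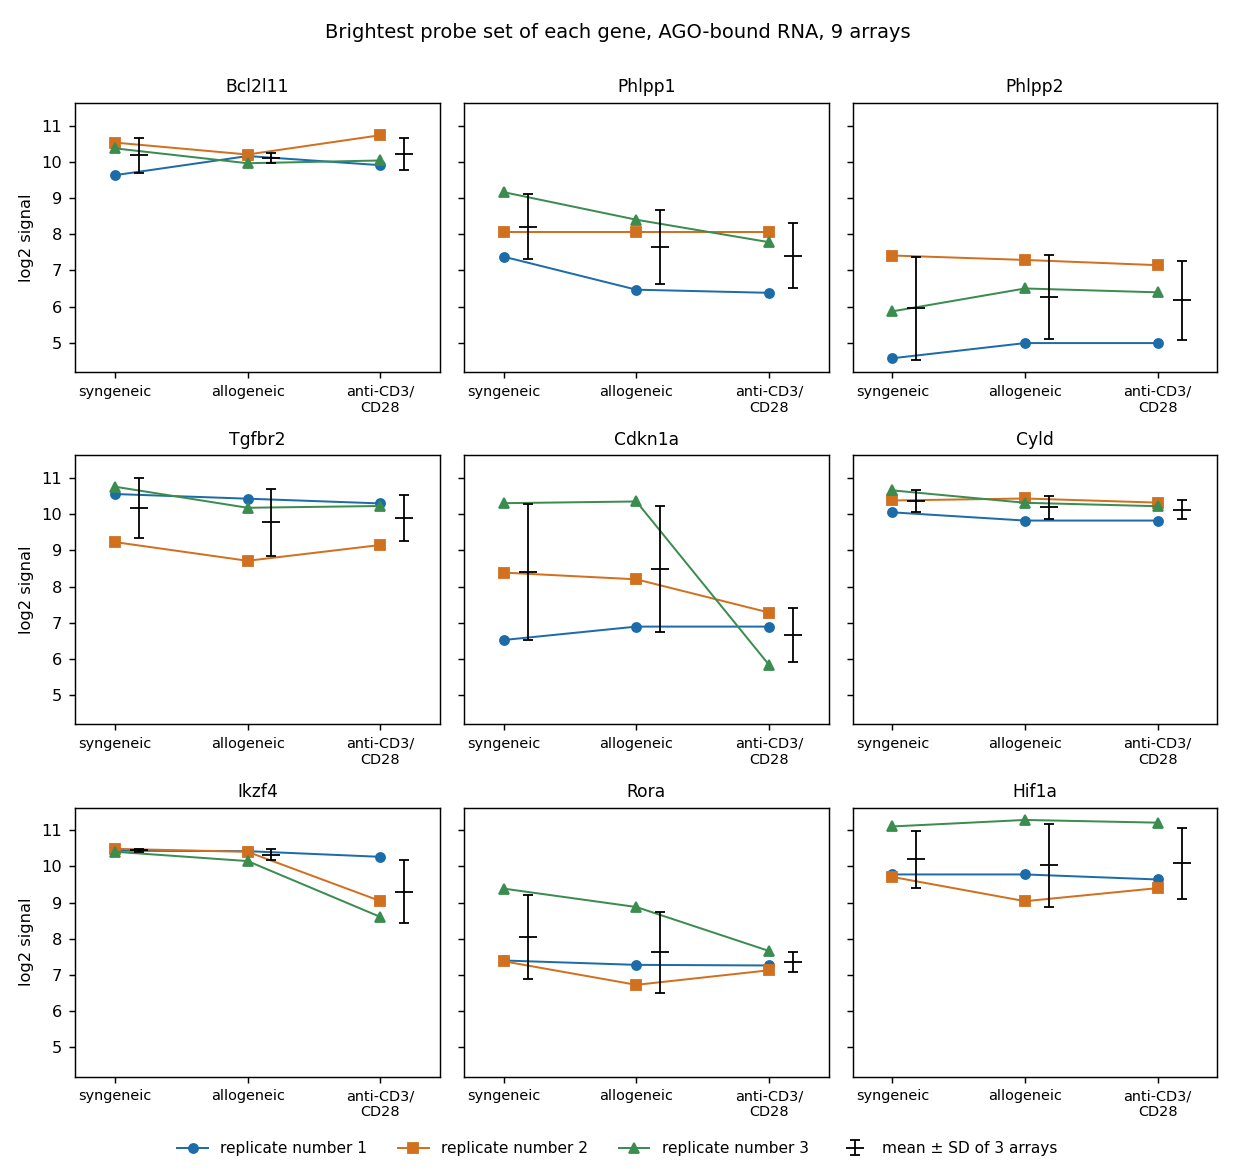
Log2 signal of the brightest probe set of each of the 9 genes (y axis) in syngeneic, allogeneic and antibody culture (x axis). Coloured points are single arrays, lines join arrays of the same replicate number, and black bars give the mean ± SD of 3 arrays. The antibody arrays of Ikzf4 lie below all syngeneic arrays, Cdkn1a has its lowest point on antibody replicate 3, and most other genes are ordered by replicate number.

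Bcl2l11 encodes BIM, the pro-apoptotic protein that neutralises BCL-2 and its relatives and removes T cells after a response. Its brightest probe set, 1456005_a_at, read 9.63, 10.53 and 10.37 in syngeneic replicates 1, 2 and 3. It read 10.16, 10.20 and 9.96 in allogeneic culture and 9.91, 10.73 and 10.04 in antibody culture. The 3 groups overlapped, and the signal was high on every array. The log2 difference was −0.07 ± 0.43 (SE) for allogeneic and 0.05 ± 0.43 for antibody culture against syngeneic culture. Without the replicate block the 95% limits of limma, −0.99 to 0.85 and −0.87 to 0.97, include differences of nearly 1 in either direction. With the block they were narrower, at −0.64 to 0.49 and −0.52 to 0.61. The other 4 probe sets had higher means in both stimulated cultures, by 0.32 and 0.83 for the third brightest, which read 7.70 in syngeneic, 9.40 in allogeneic and 9.11 in antibody replicate 3. In number 1 that probe set was equal in syngeneic and antibody culture and lower in allogeneic culture. Probe sets of Bcl2l11 thus differed in sign for allogeneic culture.

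Of 11 BCL-2 family genes measured beside BIM, 9 had a higher mean in allogeneic and 6 in antibody than in syngeneic culture. Their median log2 difference was 0.26 for allogeneic and 0.06 for antibody against syngeneic culture (0.03 and 0.00 over all genes). After quantile normalization the medians were 0.11 and 0.19 (0.018 and 0.025 over all genes), so which culture had the higher median turned with the scaling. Bcl2, the survival protein that BIM binds, stood at 11.52 ± 0.21 (SD, n = 3) in antibody and 10.97 ± 0.71 in syngeneic culture, which gives 0.55 ± 0.38 (SE) on the log2 scale. The BH3-only gene Pmaip1 differed by −1.54 ± 1.09 and Bid by 0.73 ± 0.84 in the same comparison. All 3 had overlapping groups. Bid was higher in each number, by 0.49, 1.12 and 0.58, and with the replicate block its SE was 0.21 and its unadjusted limma p 0.0146 (adjusted p = 0.711).

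PHLPP1 and PHLPP2 are phosphatases that switch off AKT, the kinase downstream of PI3 kinase. The only probe set of Phlpp1 read 7.38, 8.07 and 9.16 in syngeneic replicates 1, 2 and 3. It read 6.47, 8.07 and 8.40 in allogeneic and 6.38, 8.07 and 7.78 in antibody culture. In number 2 all 3 arrays carried exactly the same value, and in numbers 1 and 3 syngeneic culture was the highest. Within those numbers antibody minus syngeneic culture was −0.998 and −1.38 (log2) and allogeneic minus syngeneic culture −0.91 and −0.76. The mean difference was −0.79 ± 0.75 (SE) for antibody culture (95% limits −2.41 to 0.82) and −0.56 ± 0.75 for allogeneic culture. With the replicate block the first had an SE of 0.28 and an unadjusted limma p of 0.0357, with adjusted p = 0.727.

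The brighter of both Phlpp2 probe sets read 4.57, 7.41 and 5.87 in syngeneic culture. It read 4.99, 7.29 and 6.50 in allogeneic and 4.99, 7.14 and 6.39 in antibody culture. Its arrays followed replicate number, with number 2 the highest in each culture, and the differences of 0.31 ± 0.88 and 0.23 ± 0.88 from syngeneic culture were small beside that. Phlpp1 and Phlpp2 had opposite signs in both stimulated cultures, and this difference between the genes was not tested. The second probe set of Phlpp2 exceeded the array median on only 3 of 9 arrays.

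Among 17 genes of AKT and PI3 kinase signalling, 11 had a lower mean in allogeneic and 7 in antibody than in syngeneic culture. The median log2 difference from syngeneic culture was −0.12 in allogeneic and 0.04 in antibody culture. These became −0.05 and 0.18 after quantile normalization, and with arrays centred on their medians 14 of the 17 had a lower mean in allogeneic and 6 in antibody culture. Pik3r1, the regulatory subunit of PI3 kinase, read 10.02, 10.11 and 10.03 in syngeneic, 9.40, 8.98 and 9.80 in allogeneic and 9.04, 9.21 and 9.72 in antibody culture. All 6 arrays of stimulated cells lay below all 3 syngeneic arrays, with a difference of −0.73 ± 0.45 (SE) for antibody culture. With the block the SE for antibody culture was 0.21 and the unadjusted limma p 0.0147 (adjusted p = 0.711). Groups were separate in the lower direction for 1.52% of all genes in that comparison and for 0.451% in allogeneic against syngeneic culture. Foxo1, which encodes a factor that AKT keeps out of the nucleus, differed by −0.85 ± 0.57 in allogeneic culture, and the kinase gene Prkcb by −0.70 ± 0.61, with overlapping groups. Both were lower in each number, Foxo1 by between −1.26 and −0.41 and Prkcb by between −1.10 and −0.17. With the block their SEs were 0.22 and 0.25 and their unadjusted limma p-values 0.0109 and 0.0339 (adjusted p = 0.709 for each).

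TGFBR2 is the ligand-binding receptor for TGF-beta, a cytokine that restrains T cells. The brightest probe set of Tgfbr2, 1426397_at, read 10.55, 9.23 and 10.76 in syngeneic culture. It read 10.43, 8.71 and 10.17 in allogeneic and 10.29, 9.15 and 10.22 in antibody culture. Syngeneic culture was the highest within each number, although the groups overlapped. The differences were −0.41 ± 0.59 (SE) and −0.29 ± 0.59, and with the block the first had an SE of 0.15 and an unadjusted limma p of 0.0387 (adjusted p = 0.709). In antibody culture the brightest probe set had an unadjusted limma p of 0.107 with the block. The second probe set, above the array median on all 9 arrays, ran the other way: it was higher in antibody culture in all 3 numbers, by 0.10, 0.48 and 0.87. Its unadjusted limma p with the block was 0.0333 (adjusted p = 0.736 over all probe sets). In allogeneic culture its mean was higher than in syngeneic culture by 0.30, with 0, 0.26 and 0.64 within numbers 1, 2 and 3. The third never exceeded the array median, and 7 of its 9 within-number comparisons were exact ties, so it carries no order of the cultures.

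Of the 12 TGF-beta and SMAD pathway genes measured, 10 had a lower mean in antibody than in syngeneic culture (median −0.49, against 0.00 over all genes) and 9 had a lower mean in allogeneic culture (median −0.18, against 0.03). Smad7, the feedback inhibitor of the receptor, differed by −1.04 ± 0.89 (SE) and the SMAD repressor Skil by −0.61 ± 0.66 in antibody culture. Smad3, a mediator of the signal, differed by −0.62 ± 0.68 in allogeneic culture. Groups overlapped for these 3 genes, but each had 1 sign in every number. Within numbers 1, 2 and 3 the difference was −1.46, −0.26 and −1.40 for Smad7, −0.21, −1.13 and −0.49 for Skil and −0.90, −0.88 and −0.09 for Smad3. With the block the unadjusted limma p-values were 0.0349, 0.0299 and 0.0472, none of which passed after adjustment (adjusted p of 0.709 or above).

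CDKN1A is p21, an inhibitor of cyclin-dependent kinases and a target of p53. Its brighter probe set, 1424638_at, read 6.52, 8.38 and 10.30 in syngeneic replicates 1, 2 and 3 and 6.89, 8.20 and 10.35 in allogeneic culture. In antibody culture it read 6.89, 7.28 and 5.84. In syngeneic and allogeneic culture number 3 was the highest and number 1 the lowest, at nearly the same levels in both, whereas antibody replicate 3 was the lowest of the 9 arrays. Within numbers, antibody minus syngeneic culture was 0.37, −1.10 and −4.47 (log2), so sign and size depended on the number. The mean difference was −1.73 ± 1.01 (SE; 95% limits −3.92 to 0.45), the largest of the 9 members, and allogeneic minus antibody culture was 1.81 ± 1.01, a 3.51-fold ratio, with 0, 0.92 and 4.51 within numbers 1, 2 and 3. The replicate block hardly changed the SE (0.999). The size of both differences depended on antibody replicate 3. Without that array and with the block, antibody minus syngeneic culture was −0.37 and allogeneic minus antibody culture 0.45. Without the block, which leaves the high number 3 arrays of the other cultures unmatched, they were −1.32 and 1.39. The second probe set gave 0.00, −0.84 and −2.96 within numbers 1, 2 and 3. In allogeneic culture the differences from syngeneic culture were 0.08 and 0.48 for the brighter and the dimmer probe set.

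Of the 14 genes around p21 (other inhibitors, cyclins, kinases), 10 had a higher mean in allogeneic and 9 in antibody than in syngeneic culture, with medians of 0.08 and 0.05, or 0.13 and 0.06 after quantile normalization and 0.05 and 0.17 with arrays centred on their medians. Cdkn1b, which encodes the inhibitor p27, read 10.46, 10.66 and 10.44 in syngeneic, 10.05, 10.28 and 9.84 in allogeneic and 9.85, 10.13 and 9.92 in antibody culture. All 6 arrays of stimulated cells lay below the syngeneic arrays, with a difference of −0.55 ± 0.38 (SE) in antibody culture. Groups were separate in the lower direction for 0.451% of all genes in allogeneic and 1.52% in antibody against syngeneic culture. Ccne1, cyclin E, which drives entry into S phase, lay above the syngeneic arrays on all 3 antibody arrays, with a difference of 1.20 ± 0.61 (groups separate in the higher direction for 0.412% of all genes). Pcna, the sliding clamp of DNA replication that p21 binds, differed by 0.64 ± 0.46 with overlapping groups. With the block the unadjusted limma p-values of Cdkn1b, Ccne1 and Pcna in antibody culture were 0.00174, 0.0232 and 0.0312, with adjusted p of 0.677 or above.

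CYLD is a deubiquitinase that removes ubiquitin chains needed for NF-kappaB signalling. Its brightest probe set, 1429618_at, read 10.05, 10.38 and 10.66 in syngeneic, 9.82, 10.43 and 10.31 in allogeneic and 9.82, 10.32 and 10.22 in antibody culture. These 9 values spanned 0.83, the smallest range among the brightest probe sets of the members, and antibody culture was the lowest or tied for the lowest in each number. The differences from syngeneic culture were −0.17 ± 0.40 (SE) and −0.24 ± 0.40 in allogeneic and antibody culture, with 95% limits of −1.10 to 0.62 for the latter. In antibody culture the other 3 probe sets differed by between −0.39 and 0.26, and the highest value came from the one that never exceeded the array median. The second brightest, above the array median on all 9 arrays, was also higher, by 0.16, with −0.39, 0.11 and 0.75 within numbers 1, 2 and 3. The third brightest differed by −0.39 and was lower in all 3 numbers. Its unadjusted limma p with the block was 0.0425 (adjusted p = 0.736 over all probe sets).

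Among 13 genes for CYLD substrates and related ubiquitin editors, 11 had a lower mean in antibody than in syngeneic culture (median −0.23, against 0.00 over all genes), with a median of −0.11 against 0.11 when arrays were centred on their medians. Usp18, an interferon-induced protease of the ubiquitin-like protein ISG15, differed by −1.12 ± 0.98 (SE), and Tnip1, a partner of the ubiquitin editor A20, by −0.79 ± 0.72. Bcl3, a nuclear IkappaB protein and a CYLD substrate, was higher in allogeneic than in antibody culture by 1.13 ± 0.92. Groups overlapped for each. All 3 had 1 sign in every number, Usp18 between −1.74 and −0.65, Tnip1 between −1.07 and −0.57 and Bcl3 between 0.06 and 1.97. With the block their unadjusted limma p-values were 0.00946, 0.0109 and 0.0396 (adjusted p = 0.684, 0.684 and 0.928).

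IKZF4, or EOS, is an Ikaros family transcription factor that works with FOXP3 in regulatory T cells. Its brightest probe set, 1457342_at, read 10.43, 10.49 and 10.40 in syngeneic and 10.42, 10.40 and 10.15 in allogeneic culture. In antibody culture it read 10.26, 9.04 and 8.61. All 3 antibody arrays lay below all 3 syngeneic arrays, and Ikzf4 was the only member with separate groups in any comparison (separate in the lower direction for 1.52% of all genes). Means were 10.44 ± 0.04 (SD, n = 3), 10.32 ± 0.15 and 9.30 ± 0.86 in syngeneic, allogeneic and antibody culture. Antibody minus syngeneic culture was −1.14 ± 0.47 (SE; 95% limits −2.16 to −0.12), with −0.17, −1.44 and −1.80 within numbers 1, 2 and 3. Its unadjusted limma p was 0.0319 (adjusted p = 1), or 0.0184 with the block (adjusted p = 0.727), and without antibody replicate 3 the difference was −0.79. Allogeneic minus antibody culture was 1.02 ± 0.47 and positive in all 3 numbers, a 2.03-fold ratio, and its unadjusted limma p was 0.0504, or 0.0276 with the block (adjusted p = 0.928).

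The other 2 probe sets of Ikzf4 had lower means in antibody than in syngeneic culture, with differences of −0.09 and −0.53. In numbers 2 and 3 these ranged from −0.99 to −0.60. In number 1, 1 of them was tied and the other was higher by 1.20, and the latter was also 1.76 higher in allogeneic than in syngeneic culture there. Mean allogeneic minus syngeneic differences of these 2 probe sets were 0.75 and 0.08, against −0.12 for the brightest. Of 6 other members of the family and partners of EOS, 4 had a lower mean in antibody than in syngeneic culture, with a median of −0.13 (0.03 after quantile normalization). Ikzf2, or HELIOS, differed by −0.53 ± 0.81 (SE) and Ikzf3, or AIOLOS, by 0.21 ± 0.37, with overlapping groups, so neither had the separation seen for Ikzf4. Ikzf5, or PEGASUS, differed by 0.27 ± 0.81 between allogeneic and antibody culture. Whether Ikzf4 differed from these relatives was not tested.

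RORA is a nuclear receptor that takes part in the Th17 programme and in innate lymphoid cells. Its brightest probe set, 1420583_a_at, read 7.40, 7.38 and 9.39 in syngeneic, 7.28, 6.73 and 8.88 in allogeneic and 7.26, 7.13 and 7.66 in antibody culture. Within each number both stimulated cultures were below syngeneic culture, with differences of −0.12, −0.65 and −0.51 for allogeneic and −0.14, −0.25 and −1.72 for antibody culture. The groups overlapped, and replicate number 3 was high in each culture. Mean differences were −0.43 ± 0.75 (SE) and −0.70 ± 0.75. Without antibody replicate 3 and with the block the latter was −0.21, and without syngeneic replicate 3 it was −0.43 with and −0.037 without the block.

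Rora had 9 probe sets, more than any other member. All 9 had a lower mean in antibody than in syngeneic culture, and 8 of the 9 had a lower mean in allogeneic culture. They report on 1 gene in the same RNA and are not independent. The largest differences in antibody culture were −1.49 ± 1.01 (SE) and −1.34 ± 0.95, for the third and the fourth brightest probe sets, where number 3 gave −3.60 and −2.32. The latter read 5.64, 7.38 and 8.20 in syngeneic and 4.62, 6.71 and 5.87 in antibody culture, and had an unadjusted limma p of 0.0179 with the block, with adjusted p = 0.736 over all probe sets. The 2 dimmest never exceeded the array median and differed by less than 0.1 from syngeneic culture in both stimulated cultures.

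**Figure D2:**
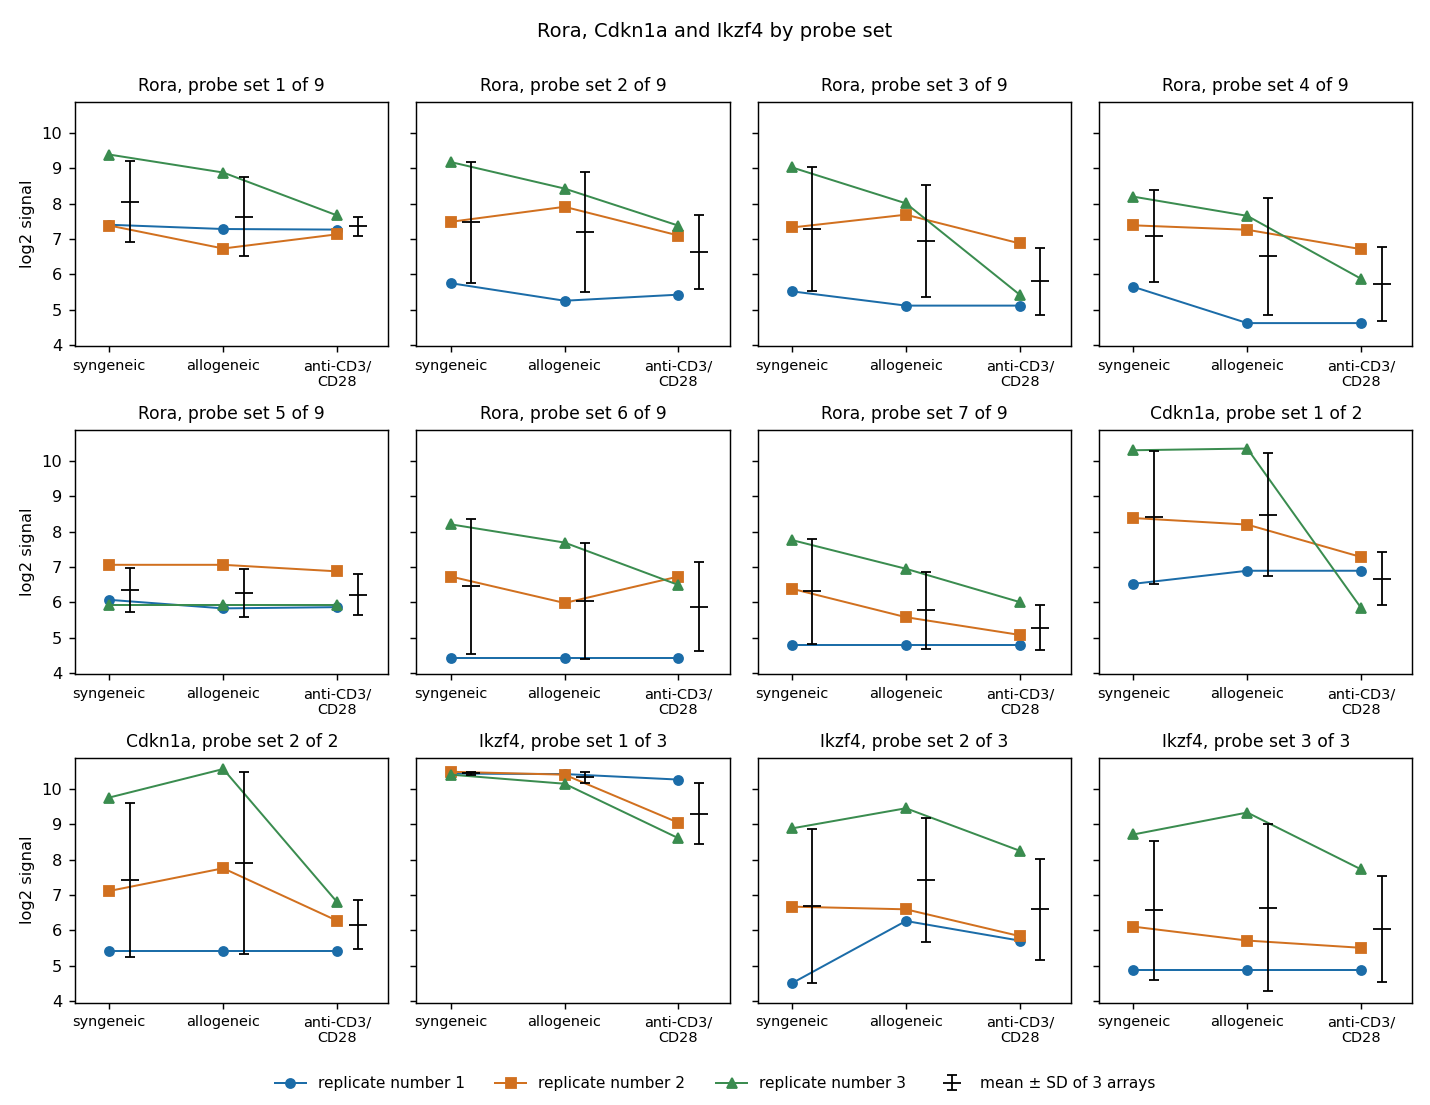
Log2 signal (y axis) by culture (x axis) for the 7 brightest of 9 Rora probe sets, both Cdkn1a probe sets and the 3 Ikzf4 probe sets. Points are arrays, lines join a replicate number and black bars give mean ± SD of 3 arrays. In number 3 the antibody array is lower than the syngeneic one in each panel except that of the fifth Rora probe set, where all 3 cultures are tied at 5.91.

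Of the 8 listed ROR receptor and Th17 genes 5 were measured, and 3 of these had a lower mean in antibody than in syngeneic culture, or 2 with arrays centred on their medians. Il17a, the signature cytokine of Th17 cells, read 7.67, 5.29 and 10.67 in syngeneic, 6.90, 4.74 and 10.02 in allogeneic and 6.90, 4.52 and 3.42 in antibody culture. Antibody replicate 3 was the lowest of its 9 arrays, as for Cdkn1a, and the mean difference was −2.93 ± 1.46 (SE). Il17a failed to exceed the array median on 4 arrays, so this size is not exact. The clock gene Arntl differed by 0.77 ± 0.74 between allogeneic and antibody culture, and the related receptor Rorb never exceeded the array median.

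HIF1A is the oxygen-regulated subunit of the transcription factor HIF-1, which raises glycolysis in activated T cells. Its brightest probe set, 1448183_a_at, read 9.78, 9.71 and 11.10 in syngeneic, 9.78, 9.04 and 11.28 in allogeneic and 9.64, 9.40 and 11.21 in antibody culture. Number 3 was the highest in each culture, and the cultures were close to each other within numbers 1 and 3. Differences from syngeneic culture were −0.16 ± 0.66 (SE) and −0.11 ± 0.66 in allogeneic and antibody culture. Their 95% limits were −1.60 to 1.27 and −1.55 to 1.32, or −0.62 to 0.29 and −0.57 to 0.34 with the replicate block. All 4 probe sets had a lower mean in antibody culture, with differences from −0.51 to −0.11. In number 3 the 3 dimmer ones gave −1.01, −1.17 and −1.08, whereas the brightest gave 0.10.

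Of the 14 genes of oxygen sensing and HIF targets, 7 had a lower mean in allogeneic and 9 in antibody than in syngeneic culture, with medians of 0.02 and −0.10 that became −0.0076 and 0.01 with arrays centred on their medians. The glycolysis gene Ldha differed by 0.56 ± 0.42 (SE) in antibody culture. The mitophagy gene Bnip3 differed by −1.35 ± 1.00 and Vhl, which marks HIF for degradation, by −0.84 ± 0.64, in the same comparison. Groups overlapped for these 3. With the block Bnip3, which was tied in number 1, had an unadjusted limma p of 0.0392 (adjusted p = 0.727).

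**Figure D3:**
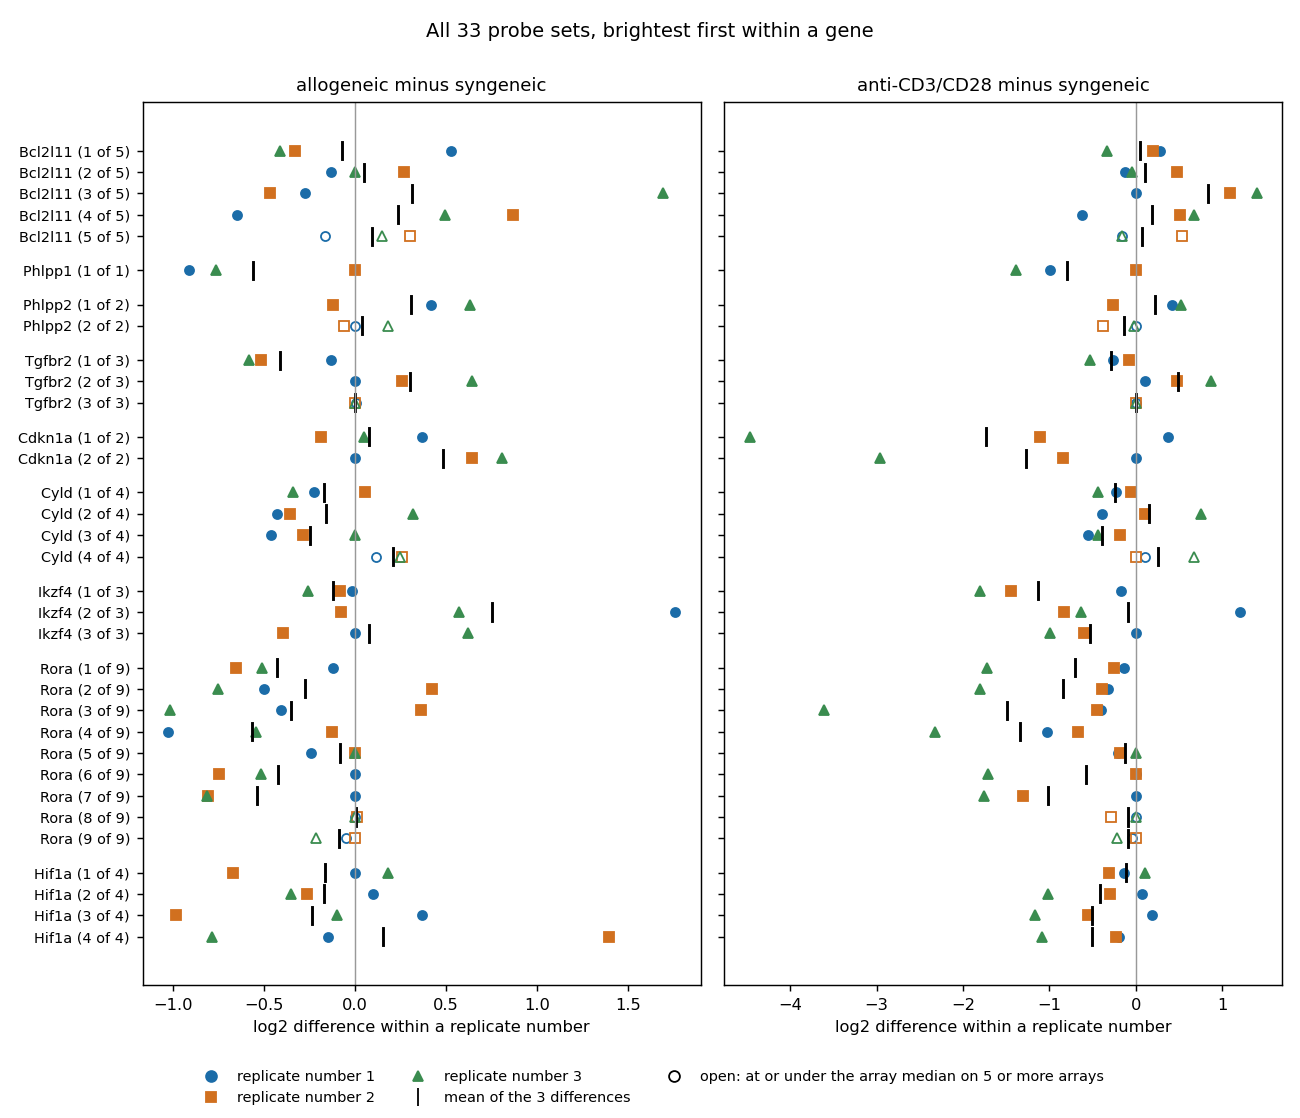
Log2 differences within a replicate number (x axis) for all 33 probe sets (y axis), against syngeneic culture, in allogeneic (left) and antibody culture (right). Symbols are the 3 numbers, black ticks are their means, and open symbols mark probe sets that failed to exceed the array median on 5 or more arrays. In antibody culture 23 of 33 means are negative, 9 of them of Rora, with the lowest points from number 3 for Cdkn1a and Rora.

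Over all 33 probe sets, 18 had a lower mean in allogeneic and 23 in antibody culture than in syngeneic culture, with 1 exactly equal in the latter. Rora alone supplied 8 of the 18 and 9 of the 23. Probe sets of 1 gene are not independent, and the matching shares of all probe sets were not counted. Medians were −0.08 and −0.24, against 0.02 and 0.00 over all probe sets. Allogeneic minus antibody culture was positive for 24 of 33, 8 of them of Rora (median 0.14, against 0.02). The brightest probe sets of the 9 genes had a median of 0.08 there, against 0.04 over all genes. Of the 9 genes, 3 had a lower mean in allogeneic than in antibody culture (35.0% of all genes, 39.9% without the dimmest), or 5 with each array centred on its median, which turned the median to −0.06 beside −0.11 over all genes, and 2 after quantile normalization. Ikzf4 was the only member higher in all 3 numbers (4.39% of all genes, 6.47% without the dimmest), and no member was lower in all 3 (2.58%). No member had separate groups there, which 0.269% of all genes had in the higher and 0.0550% in the lower direction.

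Of the 18 other reported targets of the cluster that were listed, all were measured. In antibody against syngeneic culture 13 of them had a lower mean (median −0.18, against 0.00 over all genes), or 11 with a median of −0.06 against 0.11 with arrays centred on their medians. In allogeneic culture 10 of the 18 had one (median −0.02, against 0.03), or 8 with a median of 0.02 after quantile normalization. In allogeneic against antibody culture 17 of the 18 had a higher mean (median 0.21, against 0.04), or 10 with arrays centred on their medians (median 0.06, against −0.11), and this comparison shares the antibody arrays with the first. Thbs1, the matrix protein thrombospondin-1, read 5.90, 6.73 and 8.39 in syngeneic, 4.33, 5.69 and 5.11 in allogeneic and 4.24, 5.26 and 4.02 in antibody culture, and both stimulated groups lay below all syngeneic arrays. Its difference was −2.50 ± 0.73 (SE) in antibody culture. Its unadjusted limma p was 0.00459 (adjusted p = 1), or 0.00738 with the block (adjusted p = 0.684). It failed to exceed the array median on 4 arrays, so the size is not exact. Macrophages also express it, and their part in its signal was not tested. The BMP receptor gene Bmpr2 differed by −1.13 ± 0.90 with overlapping groups and was lower in each number (unadjusted limma p with the block 0.0423, adjusted p = 0.727). Zbtb4, a transcriptional repressor, differed by −0.50 ± 0.50 (unadjusted limma p with the block 0.0611) and lay below the syngeneic arrays on all 6 arrays of stimulated cells. Such separation in the lower direction, as for Thbs1, held for 0.451% of all genes in allogeneic and 1.52% in antibody against syngeneic culture. Mcm7, a replication helicase subunit whose gene hosts the related cluster with miR-106b and miR-93, read 10.77, 9.67 and 11.36 in syngeneic, 11.73, 9.42 and 11.59 in allogeneic and 11.90, 11.15 and 11.81 in antibody culture. It was higher in antibody than in syngeneic culture in all 3 numbers, by 1.02 ± 0.60 (SE), with overlapping groups (unadjusted limma p with the block 0.0298, adjusted p = 0.727). Mir17hg, the host transcript of the miR-17 cluster, was not analysed here.

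Markers of macrophages and dendritic cells were also lower in both stimulated cultures. The mean log2 signal of 13 macrophage and monocyte markers lay between 6.35 and 7.51 on syngeneic, 5.12 and 6.02 on allogeneic and 4.43 and 5.81 on antibody arrays, and all 13 had a lower mean in both stimulated cultures. C1qa never exceeded the array median. The mean of 12 dendritic cell markers lay between 8.39 and 10.25 on syngeneic, 8.25 and 10.17 on allogeneic and 8.06 and 8.27 on antibody arrays, again with all 12 lower in both, or 10 in allogeneic culture after quantile normalization and 11 in antibody culture with centring. In antibody minus syngeneic culture, the median log2 difference within numbers 1, 2 and 3 was −0.42, −1.39 and −2.34 for macrophage markers and −0.21, −0.89 and −1.69 for dendritic cell markers. In allogeneic minus syngeneic culture it was −0.34, −1.58 and −1.14 for macrophage markers and −0.03, −0.96 and −0.04 for dendritic cell markers. In antibody culture 7 of the 9 members also had their lowest difference in number 3, all except Phlpp2 and Hif1a, which had theirs in number 2. In the same numbers the median of the T cell markers was −0.07, 0.57 and 0.45. In allogeneic culture 4 of the 9 members had their lowest difference in number 3. Of the B cell markers 7 were measured, with medians of −0.33, −0.22 and 0.73, and of the granulocyte markers 8, with 0.00, −0.02 and −0.33. The part of other cells in the values of the 9 genes was not tested.

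**Figure D4:**
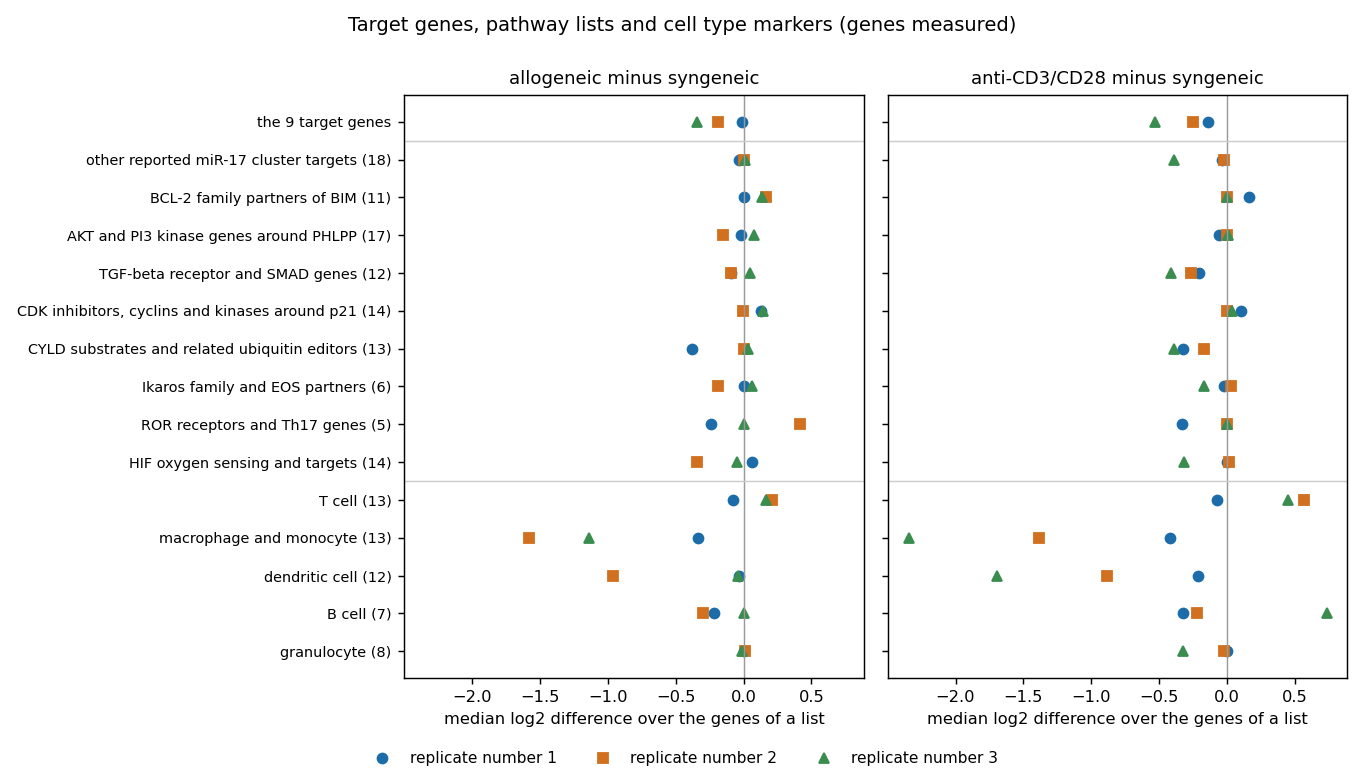
Median log2 difference over the genes of a list (x axis) within each replicate number, against syngeneic culture, for the 9 target genes, 9 pathway lists and 5 lists of cell type markers (y axis, with the number of genes measured). In antibody culture the 9 target genes lie at −0.14, −0.25 and −0.53 in numbers 1, 2 and 3, beside the macrophage markers at −0.42, −1.39 and −2.34.

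Genes with the pattern most like a member were looked up among 10464 named genes above the dim limit, by Pearson correlation over the 9 arrays after the mean of each replicate number was removed. The values are the highest of that many genes, share the same 9 arrays and are given as a description. Phlpp1 was closest to Tlr2 (r = 0.998), a receptor for bacterial lipopeptides on myeloid cells, and to Tmem19 (0.995). Cdkn1a was closest to Retreg2 (0.996) and Smpdl3b (0.994), and Rora to Gga2 and Ostf1 (0.996 each). Ikzf4 was closest to S1pr3 (0.988), a sphingosine-1-phosphate receptor, and Ttc17 (0.986). The closest genes for Bcl2l11 (Bzw1, Polr1e), Phlpp2 (Eif2s2, Ntrk2), Tgfbr2 (Tle4, Trmt2b), Cyld (Pgap2, Pigc) and Hif1a (Acvr1b, Pcm1) had r between 0.953 and 0.984.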

How the data were processed

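The authors deposited log2 signals per probe set, made with RMA (robust multi-array average) per the submitters' processing notes, with its software, version and genome build not given in the sources used here. In all, 45101 probe sets were read on 9 arrays (array medians 4.58 to 5.67). Left out were 64 control probe sets, 932 that name more than 1 gene and 9160 that name none. Symbols of 34741 of the other 34945 probe sets were brought up to date by gene ID. The brightest probe set (mean of 9 arrays) stands for a gene. Differences were tested over all 18193 genes with limma 3.58.1 in R 4.3.3 (group means, intensity trend, Benjamini-Hochberg adjustment, threshold 0.05), and probe sets in a second fit over all 34945. The median SE was 0.639, or 0.156 with the replicate number as a block. The number of arrays limits the precision. The replicate numbers pair the arrays: deviations from the group means correlated with r of 0.811 to 0.921 in the 9 pairs of equal number and −0.597 to −0.165 in the 18 others. Removal of the group means makes the latter negative on average when the former are positive, so they are no separate evidence.

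The members and all lists were chosen with earlier results of these data known. Named genes are all members, up to 3 genes per pathway list with the smallest p, and the 2 genes most like each member. Of the lists, 10 were pathway lists and 5 marker lists. Means within 1e-09 of each other count as equal. The fit was tested on simulated data with known changes. Alternatives were the block, quantile normalization, median centring, a 40th percentile filter, other variance priors, array weights, all probe sets, probe set means and each array left out.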

Additional observations from a re-analysis of the deposited data

How the results depend on the processing

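No alternative brought a member past the threshold: limma called 0 members in any comparison under 11 other settings and 18 fits that left out 1 array each, 9 of them with the replicate block. The lowest adjusted p of a member was 0.547, for Ikzf4 in antibody against syngeneic culture with the replicate block and 1 array left out. The pairing by replicate number changed no call, with 0 members and 0 genes called with the block in each comparison. With arrays centred on their medians, 1 gene was called for allogeneic and 1 for antibody against syngeneic culture, and the median of all genes moved by 0.11 for antibody against syngeneic and by −0.15 for allogeneic against antibody culture; the cause was not tested.

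Of the 27 member differences, 7 kept their sign throughout, but their size moved when 1 array was left out. Antibody minus syngeneic culture ranged from −1.20 to −0.28 for Phlpp1, −2.71 to −0.37 for Cdkn1a, −0.40 to −0.093 for Cyld, −1.62 to −0.79 for Ikzf4 and −1.04 to −0.037 for Rora, and allogeneic minus antibody culture from 0.45 to 2.79 for Cdkn1a and 0.67 to 1.499 for Ikzf4. The causes of the other sign changes were not tested. For allogeneic minus syngeneic culture, array weights gave −0.11 for Phlpp2 and −0.22 for Cdkn1a, and the mean over probe sets gave 0.13 for Bcl2l11 and 0.24 for Ikzf4. Leaving out number 1 of each group, chosen after seeing the data, gave −0.069 for Cdkn1a, and −0.065 for Bcl2l11 in antibody minus syngeneic culture, with or without the block. In the latter comparison the mean over probe sets gave 0.064 for Tgfbr2. For allogeneic minus antibody culture, quantile normalization gave 0.014 for Hif1a and centring gave −0.061 for Phlpp2 and −0.075 for Cyld. Array weights gave −0.12 for Phlpp1, −0.27 for Phlpp2, 0.062 for Tgfbr2 and −0.023 for Cyld, and the mean over probe sets −0.038 for Cyld and 0.28 for Hif1a.

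With 1 array left out, 20 of the 27 differences changed sign at least once. Allogeneic minus syngeneic culture ranged from −0.34 to 0.11 for Bcl2l11, −0.97 to 0.031 for Phlpp1, −0.38 to 1.04 for Phlpp2, −0.89 to 0.12 for Tgfbr2 and −0.86 to 1.03 for Cdkn1a. It ranged from −0.33 to 0.012 for Cyld, −0.39 to 0.083 for Ikzf4, −1.05 to 0.24 for Rora and −0.79 to 0.33 for Hif1a. Antibody minus syngeneic culture ranged from −0.23 to 0.23 for Bcl2l11, −0.46 to 0.96 for Phlpp2, −0.77 to 0.080 for Tgfbr2 and −0.68 to 0.34 for Hif1a. Allogeneic minus antibody culture ranged from −0.36 to 0.14 for Bcl2l11, −0.28 to 0.82 for Phlpp1, −0.51 to 0.72 for Phlpp2 and −0.49 to 0.41 for Tgfbr2. It ranged from −0.079 to 0.25 for Cyld, −0.35 to 0.73 for Rora and −0.67 to 0.51 for Hif1a. Signals at or near the array median, as for 6 of the 33 probe sets, limit what a difference can show.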
